A study of Mus musculus with 21 samples.

Results

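Cytochrome P450 families 1 to 4 are haem enzymes of the endoplasmic reticulum that oxidise drugs, steroids, bile acids, fatty acids and vitamin precursors. The genes were taken from the array's non-control probes by symbol, for families 1, 2, 3 and 4, and kept where a probe stood well above background in the sample channel on at least 3 arrays. Of 77 such genes on the array 63 were kept, among 21372 kept genes in all: 2 of family 1, 38 of family 2, 8 of family 3 and 15 of family 4. Of the 14 others, 10 were below that limit on every array (Cyp1a2, Cyp2a22, Cyp2b13, Cyp2b19, Cyp2j5, Cyp4a14, Cyp4a29-ps, Cyp4a30b-ps, Cyp4f39 and Cyp4x1), Cyp2a4, Cyp2b23 and Cyp2g1 were above it on 1 array, and Cyp2w1 lay just outside with 2 arrays. Cyp2j11, with 3 arrays, lay just inside.

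RNA came from mouse small-intestinal organoids, crypt epithelium grown in Matrigel with EGF, Noggin and R-spondin 1. All groups carried a tet-O transgene for human β-catenin lacking its N-terminal 89 residues, with a myc tag, in KH2 cells whose M2-rtTA activator is driven by the ROSA26 promoter; the chimaeras had been crossed to C57/BL6-J. β-Catenin carries the Wnt signal into the nucleus, and the transgene is read while doxycycline is present. The 4 groups below were set against doxycycline with vehicle (7 arrays, A to G): doxycycline withdrawn for 24 h (4 arrays, D to G), and doxycycline with compound 2 (3 arrays, A to C), compound 6 (4 arrays, D to G) or compound 9 (3 arrays, A to C), each at 2 µM for 24 h. Per the series description the compounds are close analogues from one pyridine series aimed at CDK8 and CDK19, a pair of kinases that associate with Mediator. Loss of the transgene product and absence of doxycycline itself cannot be told apart. The labels do not say whether arrays of a group are separate cultures or animals, so the spread behind each p-value is that between these samples and may be technical.

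Hepatocytes and enterocytes are the classic sites of these enzymes. Each takes electrons from the reductase encoded by Por, and many of the genes are read under ligand-activated and other transcription factors: the aryl hydrocarbon receptor, which pairs with Arnt, for Cyp1a1 and Cyp1b1, and among nuclear receptors the pregnane X receptor (Nr1i2) for Cyp3a genes, the constitutive androstane receptor (Nr1i3) for Cyp2b genes, PPARα for Cyp4a genes, and HNF4α for Cyp2c and Cyp3a genes. In mouse liver, Cyp2e1 is one of the genes that need β-catenin around the central vein.

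Promoter sequence was at hand for 48 of the 63 genes (RefSeq, GRCm38.p6, 250 bases before the start). The letters CAAAGTCCA, a known form of the HNF4 element, were found on either strand in 7 of those 48 genes (14.6%), against 126 of 32851 promoters in all (0.384%). The 48 genes have 55 promoters, so the first share counts genes and the second promoters. The stretches of Cyp3a16 and Cyp3a41b, and of Cyp2c67 and Cyp2c68, are close copies, so the 7 matches are not independent. The letters are shown because the genes that hold them moved in different directions. The capitals mark the element in 60 bases of each promoter, 5′ to 3′ on the gene's strand.

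Cyp3a16, chr5:145469788-145469847 (minus): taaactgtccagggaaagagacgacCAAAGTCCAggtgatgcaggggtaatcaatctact

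Cyp3a41b, chr5:145584791-145584850 (minus): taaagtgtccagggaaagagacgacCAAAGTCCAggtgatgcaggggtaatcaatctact

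Cyp3a11, chr5:145879929-145879988 (minus): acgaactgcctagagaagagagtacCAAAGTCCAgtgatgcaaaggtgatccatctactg

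Cyp2c65, chr19:39060865-39060924 (plus): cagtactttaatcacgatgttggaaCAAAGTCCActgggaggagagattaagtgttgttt

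Cyp2c67, chr19:39649133-39649192 (minus): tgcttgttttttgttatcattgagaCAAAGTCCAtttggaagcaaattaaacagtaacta

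Cyp2c68, chr19:39741144-39741203 (minus): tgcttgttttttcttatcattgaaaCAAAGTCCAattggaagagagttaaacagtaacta

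Cyp2c70, chr19:40187316-40187375 (minus): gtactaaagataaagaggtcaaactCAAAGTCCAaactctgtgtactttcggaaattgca

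The motif was picked with these sequences and earlier results in view, and a match is a description of letters, not a site. Other motifs searched the same way were GCGTG, the core of the aryl hydrocarbon receptor element, in 9 of the 48 genes (18.8%) and 28.2% of all promoters, and TGACNNNGC, the antioxidant element, in 2 genes (4.17%) and 10.2% of all promoters. The TCF letters CTTTGAT were in 2 genes (Cyp2c29 and Cyp2c39) and 3.21% of all promoters. CTTTGAA was in 2 genes (Cyp2e1 and Cyp3a13) and 4.46% of all promoters.

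The arrays compared each sample (Cy3) with one universal mouse reference RNA (Cy5), and values are log2 ratios of sample over reference, which set no gene's level against another's. Between 42.6% and 51.9% of spots per array were well above background in the sample channel, and the number of arrays limits the precision. The A to C arrays and the D to G arrays were scanned on 2 days with 2 scanners, so levels are not compared between the sets. All 12 enterocyte markers were kept, as were 6 of 8 hepatocyte, 5 of 6 fibroblast, 5 of 6 leukocyte and 3 of 4 endothelial markers; the hepatocyte markers Ahsg and Fgb, the fibroblast marker Pdgfra and the endothelial marker Cdh5 were below the filter. The letter F stood apart: the median of 5 Paneth cell markers was 2.47, 1.84 and 2.45 on arrays F of compound 6, withdrawal and vehicle, against 4.62 to 5.29 on the other D to G arrays. The median of 8 proliferation markers was -3.93 on vehicle F and between -1.86 and -1.80 on vehicles D, E and G.

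With compound 6, 27 of the 63 genes (42.9%) passed the moderated limma test at an adjusted p of 0.05, against 24.8% of all genes tested: 20 rose (31.7% of members, 11.4% of all) and 7 fell (11.1% of members, 13.4% of all). With compound 2, 10 (15.9%) passed, against 5.32% of all genes, 9 of them higher (14.3% of members, 3.31% of all) and 1 lower (1.59% of members, 2.01% of all). After withdrawal 13 (20.6%) passed, against 20.7% of all genes; 9 rose (14.3% of members, 7.27% of all) and 4 fell (6.35% of members, 13.4% of all). With compound 9 none passed, and no gene of the whole array did (0% of all); 4 members (Cyp2c55, Cyp2t4, Cyp3a11 and Cyp3a41b, named after their values were seen; 6.35%) had an unadjusted p under 0.05, all higher, against 1.17% of all genes. With the scalings below, the split of higher against lower moved by over 10 percentage points for compound 2 (2 higher and 2 lower with Agilent's log ratio and with the series matrix), compound 6 (13 higher and 9 lower with median centring) and withdrawal (22 higher and 4 lower with the sample channel alone, 2 higher and 3 lower with median centring). The median change of the 63 genes was 0.18 after withdrawal, 0.18 with compound 2, 0.14 with compound 6 and -0.04 with compound 9, against -0.01, 0.00, -0.03 and -0.01 over all genes. Of the 63 genes, 29 passed in no comparison with vehicle, 21 in 1, 10 in 2 and 3 in 3. Compounds 2 and 9 share vehicle arrays A to C, and compound 6 and withdrawal share vehicle arrays D to G.

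**Figure D1:**
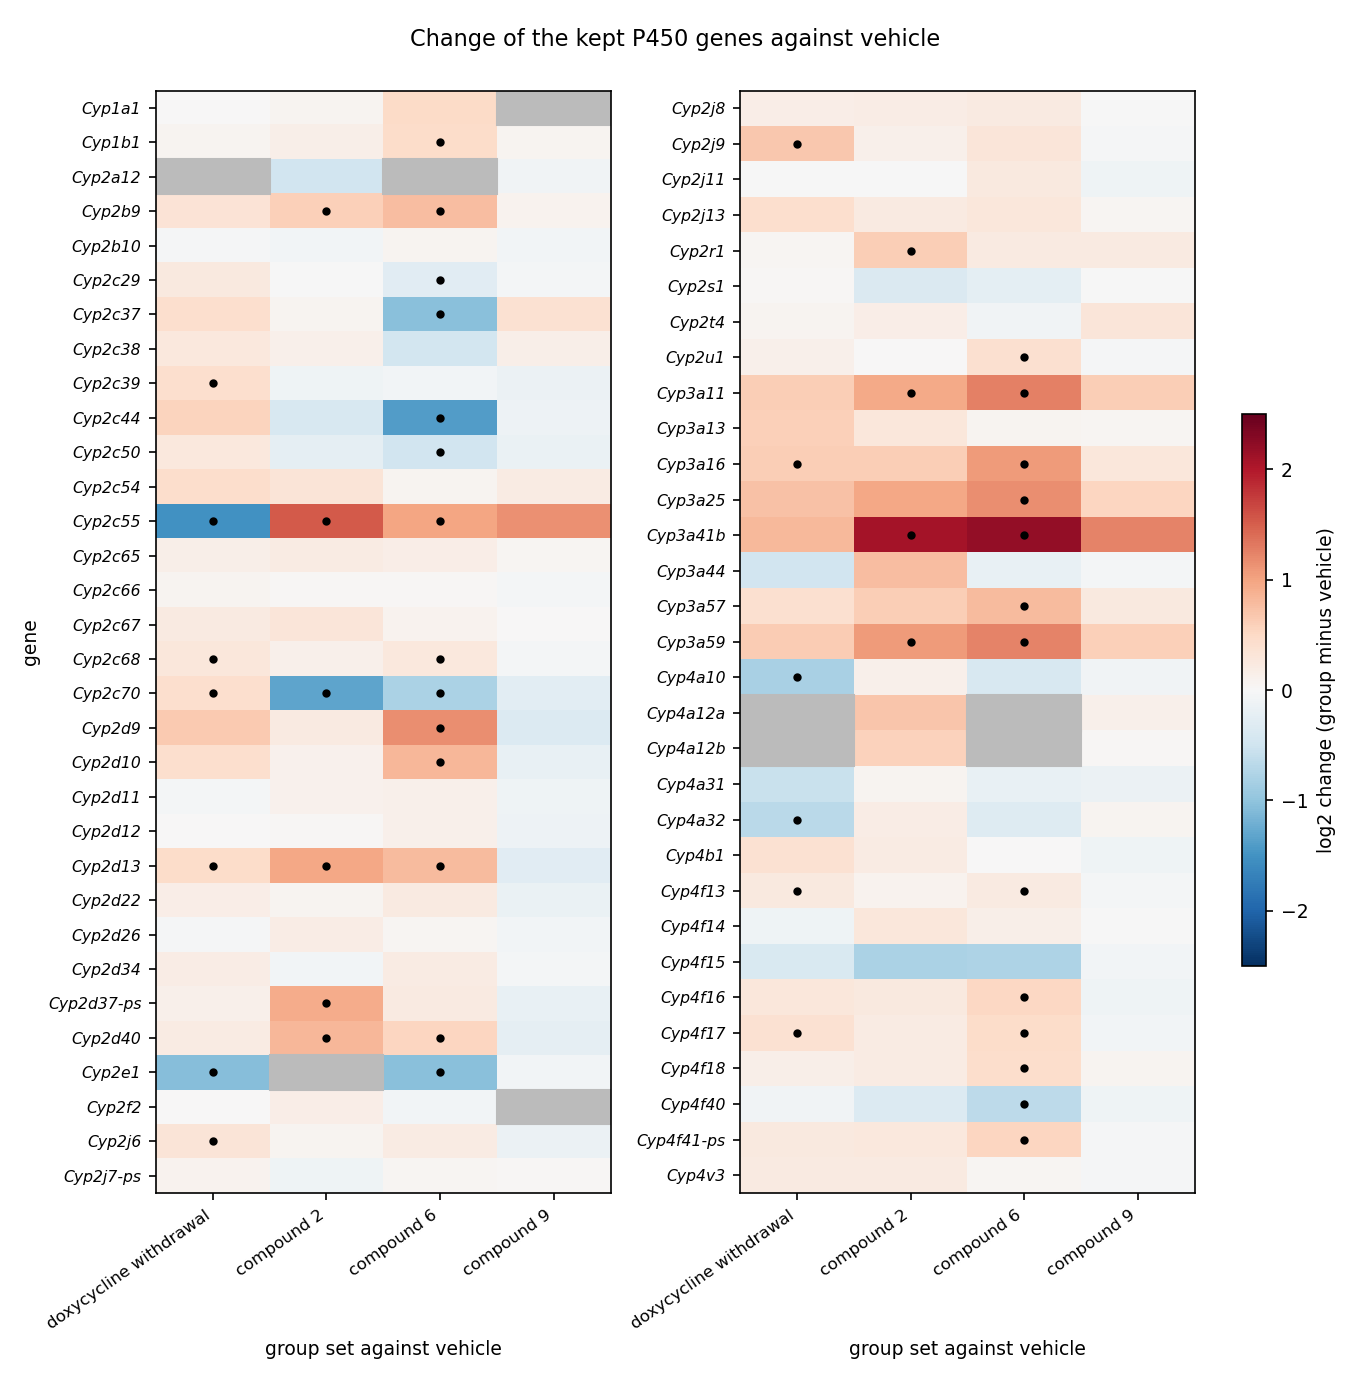
Log2 change of each of the 63 kept genes (vertical axis) against vehicle arrays with the same letters, for doxycycline withdrawal, compound 2, compound 6 and compound 9 (horizontal axis), with dots where the adjusted p was under 0.05 and grey where neither group stood well above background. Dots number 13, 10, 27 and 0 in these columns, and the darkest cells include Cyp3a41b (2.09 with compound 2, 2.20 with compound 6) and Cyp2c55 (-1.51 after withdrawal).

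Arrays with the same letter deviated together, and fitting the letter as a block raised the counts: to 35 members after withdrawal (29 higher, 6 lower; 39.1% of all genes passed), 20 with compound 2 (17 higher, 3 lower; 17.4% of all), 37 with compound 6 (25 higher, 12 lower; 41.3% of all) and 1 with compound 9, Cyp3a41b, the single gene of the array to pass (0.00468% of all). Without the letter F arrays 30 members passed after withdrawal (31.9% of all genes) and 30 with compound 6 (30.4% of all genes). Without vehicle F alone 31 passed after withdrawal (34.5% of all genes), and without vehicle D or E 4 each (12.7% and 11.3% of all genes). In bulk RNA, fewer cells of a type and less RNA per cell cannot be told apart.

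Among the Cyp2c genes, which oxidise arachidonic acid, bile acids and drugs, Cyp2c55 fell after withdrawal and rose with compounds 2 and 6. It encodes an enzyme of arachidonic acid known from mouse colon; its probe lies at chr19:39116674-39116733 (mm9, plus). It read 1.67, 1.64, 0.96 and 1.02 on withdrawal arrays and 3.57, 3.46, 4.48 and 3.73 with compound 6, against 2.90, 2.97, 2.54 and 2.90 on vehicle arrays D to G. All 4 withdrawal arrays lay below, and all 4 compound 6 arrays above, every vehicle array; such groups without overlap were found for 16.8% of all genes after withdrawal and 19.9% with compound 6. The changes were -1.51 ± 0.20 (SE; adjusted p = 0.000195) after withdrawal and 0.98 ± 0.20 (adjusted p = 0.00182) with compound 6.

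In the other letter set Cyp2c55 read 4.75, 4.27 and 4.46 with compound 2 and 4.10, 4.35 and 3.90 with compound 9, against 2.85, 3.17 and 2.88 with vehicle. Every array of either compound was above every vehicle array, where 26% of all genes had no overlap with compound 2 and 5.18% with compound 9. The rise with compound 2 was 1.53 ± 0.24 (adjusted p = 0.000774). With compound 9 the change was 1.15 ± 0.24 and did not pass after adjustment over all genes (adjusted p = 0.786). The reference channel changed little beside Cyp2c55, by 0.00 after withdrawal, 0.27 with compound 2 and 0.09 with compound 6, and the gene passed in these 3 comparisons under all 6 scalings tried. Stem-cell markers fell beside it after withdrawal (8 of 8, median -1.61) and with compound 6 (7 of 8, median -1.11), and with compound 2 3 fell and 1 rose of 8 (median -0.63). Of all genes, 13.4% fell after withdrawal, 13.4% with compound 6 and 2.01% with compound 2, where 3.31% rose. The part of these markers in the result was not tested.

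Cyp2c70, which makes muricholic acids from chenodeoxycholic acid in mice, fell with compounds 2 and 6. Its probe lies at chr19:40227969-40228028 (mm9, minus), and its promoter holds the element shown above. It read 0.93, 1.10 and 1.44 with compound 2 and 2.26, 2.29 and 2.06 with compound 9, against 2.74, 2.27 and 2.41 with vehicle. The compound 2 arrays lay below all others of their set, whereas compound 9 and vehicle overlapped. The change with compound 2 was -1.32 ± 0.17 (adjusted p = 0.00017).

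On letters D to G, Cyp2c70 read 4.14, 3.99, 3.53 and 3.84 with compound 6 and 5.28, 5.10, 4.75 and 5.23 on withdrawal arrays, against 4.62, 4.69, 4.46 and 4.88 with vehicle. Compound 6 arrays lay below every vehicle array, by -0.79 ± 0.15 (adjusted p = 0.000886). Withdrawal overlapped with vehicle but was higher at each of the 4 letters, and the rise of 0.43 ± 0.15 was close to the threshold (adjusted p = 0.0488). Leaving out vehicle D, E or F, or withdrawal D, E or G, ended that call (values of 0.36 to 0.44).

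Cyp2c44, an arachidonic acid epoxygenase now listed in RefSeq as Cyp2c23, fell with compound 6; its probe lies at chr19:44079535-44079594 (mm9, minus). It read 2.65, 2.56, 2.45 and 2.62 with compound 6 and 4.46, 4.34, 4.55 and 4.74 after withdrawal, against 3.92, 3.58, 4.18 and 4.21 with vehicle. Neither group overlapped with vehicle, and they lay on opposite sides of it. The fall with compound 6 was -1.40 ± 0.20 (adjusted p = 7.45e-05) and passed under all 6 scalings. The change after withdrawal was 0.55 ± 0.20 (adjusted p = 0.0548, and 0.0028 with the letter as a block). In the other set it read 5.35, 4.79 and 4.92 with compound 2 and 5.86, 4.96 and 5.03 with compound 9, against 5.59, 4.96 and 5.70 with vehicle. Those ranges overlapped and neither compound passed.

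Cyp2c37, another Cyp2c gene, read 3.20, 3.00, 4.26 and 3.33 with compound 6 and 4.87, 4.66, 5.09 and 4.98 after withdrawal, against 4.06, 4.20, 5.42 and 4.27 with vehicle. The reference of this probe stood well above background on 1 of the 21 arrays. Array F was the highest in each group, and at each letter compound 6 lay below vehicle. The change with compound 6 was -1.04 ± 0.28 (adjusted p = 0.0104); it turned to 1.34 in the authors' series matrix values, while a further probe gave -0.49. After withdrawal the change was 0.41 ± 0.28 (adjusted p = 0.308, and 0.0332 with the block). In the A to C set it lay between 4.92 and 5.12 with compound 2 and between 5.01 and 5.80 with compound 9, against 4.73 to 5.25 with vehicle, so those groups overlapped.

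Cyp2c65, an intestinal Cyp2c gene whose promoter also holds the element, did not pass in any comparison of the ratio. It read 5.95, 5.95, 5.88 and 5.92 after withdrawal and 6.00, 5.90, 6.10 and 5.74 with compound 6, against 5.85, 5.72, 5.73 and 5.78 with vehicle. The withdrawal arrays were all above the vehicle arrays (0.15 ± 0.08, adjusted p = 0.201), whereas compound 6 overlapped with them. Its A to C arrays read 5.18, 5.32 and 5.33 with compound 2 and 5.01, 5.15 and 5.20 with compound 9. Vehicle read 4.88, 5.27 and 5.05, with overlap in both. In the sample channel alone Cyp2c65 lay between 7.83 and 8.48 with compound 6 and between 7.64 and 7.98 after withdrawal. Vehicle arrays D to G lay between 6.86 and 7.57. With compound 2 it lay between 8.08 and 8.48, against 7.41 to 7.66 with vehicle, and the lowest compound 9 array read 7.73. Its reference channel lay between 1.92 and 2.17 with compound 6, against 1.16 to 1.79 with vehicle. The part of the reference signal in this result was not tested.

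The remaining Cyp2c calls were smaller. Cyp2c29 (-0.29 ± 0.10) and Cyp2c50 (-0.49 ± 0.16, reference well above background on 10 of the 21 arrays) fell with compound 6. Cyp2c68 rose with compound 6 (0.26 ± 0.08) and after withdrawal (0.28 ± 0.08), and Cyp2c39, a retinoic acid hydroxylase, rose after withdrawal (0.41 ± 0.13). Each of these calls was lost without single arrays: Cyp2c29 without compound 6 D, E or G or vehicle D, F or G (-0.31 to -0.21), Cyp2c50 without compound 6 D, E or G or vehicle E, F or G (-0.48 to -0.37), Cyp2c68 without vehicle D or E in both comparisons or compound 6 E (0.20 to 0.25), and Cyp2c39 without vehicle D, E or G or withdrawal D, F or G (0.34 to 0.44). The probe of Cyp2c68 also matches Cyp2c40 and Cyp2c69, that of Cyp2c67 also matches Cyp2c40 and Cyp2c68, and that of Cyp2c66 also matches Cyp2c65, so these probes cannot tell those genes apart. By their annotation the Cyp2c65 probe and a further Cyp2c67 probe match their own gene alone. The latter shares 55 of 59 aligned bases with the Cyp2c68 probe. Cyp2c38 and Cyp2c54 did not pass on their brightest probes. A further Cyp2c38 probe lay between 3.117 and 3.294 after withdrawal, against 1.963 to 2.797 with vehicle. A further Cyp2c54 probe read 3.58, 3.43, 4.82 and 3.42 with compound 6. Vehicle arrays D to G read 4.22, 4.55, 5.20 and 4.74 for that probe. The brightest probes changed by 0.26 and 0.06 in these comparisons. The reference of both further probes stood well above background on none of the 21 arrays. Of the 13 Cyp2c genes, 3 rose and 1 fell after withdrawal, 1 rose and 1 fell with compound 2, 2 rose and 5 fell with compound 6, and none passed with compound 9. Over all genes 7.27% rose and 13.4% fell after withdrawal, 3.31% and 2.01% with compound 2, and 11.4% and 13.4% with compound 6.

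**Figure D2:**
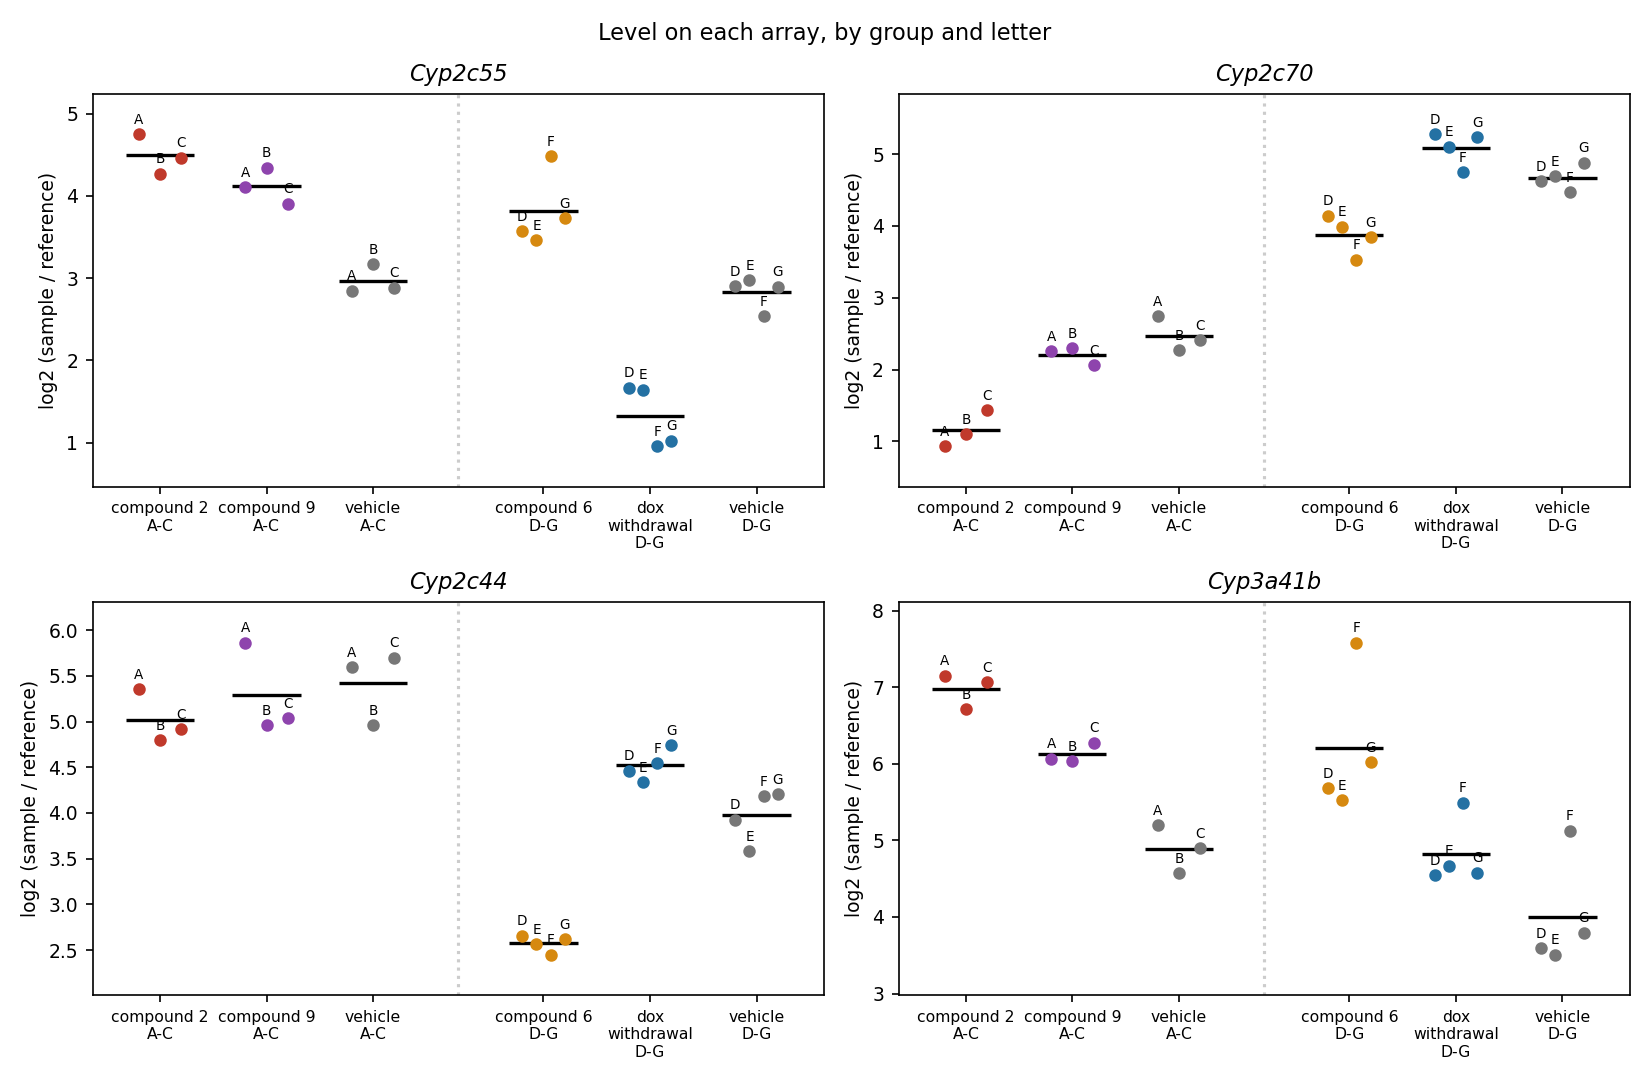
Log2 ratio of sample over reference (vertical axis) on each array for Cyp2c55, Cyp2c70, Cyp2c44 and Cyp3a41b, by group (horizontal axis) within each of the 2 letter sets, with a point for each array and a bar for the group mean. Cyp2c55 lies between 0.96 and 1.67 after withdrawal and between 2.54 and 2.97 in vehicle arrays D to G.

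Cyp2e1, which oxidises ethanol, was dim: it stood well above background on 1 of 4 withdrawal arrays, 1 of 4 compound 6 arrays and 3 of 4 vehicle arrays D to G. It read 0.10, 0.23, 0.15 and -0.05 after withdrawal and 0.28, 0.02, 0.00 and 0.27 with compound 6, against 1.43, 1.58, 0.25 and 1.46 with vehicle (probe chr7:147960628-147960687, mm9, plus). Vehicle F was as low as the treated arrays; the 3 other vehicle arrays stood above all of them. The changes were -1.07 ± 0.19 after withdrawal (adjusted p = 0.00123) and -1.04 ± 0.19 with compound 6 (adjusted p = 0.000829), with the same sign and side of the threshold under all 6 scalings. The Cyp2e1 reference stood well above background on 7 of the 21 arrays. The proliferation and stem-cell medians were also low on vehicle F (-3.93 and 0.24, against -1.86 to -1.80 and 1.09 to 1.35 on vehicles D, E and G), and their part in the result was not tested. In the other set Cyp2e1 was well above background on no compound 2 or vehicle array and on 1 compound 9 array.

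The 8 Cyp3a genes oxidise drugs and steroids. By the ratio, 6 of the 8 rose with compound 6 (median 1.11) and 3 with compound 2 (median 0.86), 1 rose after withdrawal (median 0.62) and none passed with compound 9 (median 0.40). Of all genes, 11.4% rose with compound 6, 3.31% with compound 2 and 7.27% after withdrawal. Among the 8, Cyp3a41b changed the most. Its probe, at chr5:146319794-146319853 (mm9, minus), also matches Cyp3a41a. It read 7.15, 6.71 and 7.07 with compound 2 and 6.06, 6.03 and 6.28 with compound 9, against 5.20, 4.57 and 4.90 with vehicle. The 3 groups did not overlap. The rise with compound 2 was 2.09 ± 0.44 (adjusted p = 0.00856), and the change with compound 9 was 1.24 ± 0.44 (adjusted p = 1, and 0.0358 with the letter as a block).

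On letters D to G, Cyp3a41b read 5.68, 5.53, 7.58 and 6.02 with compound 6 and 4.54, 4.67, 5.49 and 4.58 after withdrawal, against 3.59, 3.51, 5.13 and 3.79 with vehicle. Array F was the highest of each group, and at each letter both treated arrays lay above the vehicle array. The rise with compound 6 was 2.20 ± 0.38 (adjusted p = 0.000468). The change after withdrawal was 0.82 ± 0.38 (adjusted p = 0.137, and 0.000321 with the block). The reference stood well above background on none of the 21 arrays for this probe, so a change in that channel could not be measured here. The call with compound 6 held under all 6 scalings; that with compound 2 was lost with Agilent's log ratio (1.44, adjusted p = 0.0564) and the series matrix (0.61, adjusted p = 0.771).

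Another Cyp3a gene, Cyp3a44, has a probe in which 46 of 53 aligned bases are the same. The aligned stretches below are shown because the signals differ, and the capitals mark the bases that differ.

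Cyp3a41b, probe bases 21 to 50: cagtgtctgtAcaGgttaTcatCtaatTAA

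Cyp3a44, probe bases 14 to 43: cagtgtctgtGcaAgttaAcatAtaatACG

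The Cyp3a44 probe lies at chr5:146585717-146585776 (mm9, minus). Cyp3a44 changed by -0.48 ± 0.20 after withdrawal (adjusted p = 0.09, and 0.00443 with the block), 0.76 ± 0.23 with compound 2 (adjusted p = 0.058, and 0.0013 with the block) and -0.19 with compound 6. It stood well above background on 2 of 4 withdrawal, 3 of 3 compound 2, 3 of 4 compound 6 and 2 of 3 compound 9 arrays, against 2 of 3 vehicle arrays A to C and 4 of 4 vehicle arrays D to G, and its reference on none of the 21 arrays, which limits these values.

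For other Cyp3a genes the reference channel moved as well. That channel holds the same RNA on every array, and fitted alone with the same model it gave 15, 17, 99 and 0 genes of the whole array after withdrawal and with compounds 2, 6 and 9. With compound 6, 7 of the 99 were members: Cyp2b9 (1.54), Cyp2b10 (0.78), Cyp2c65 (0.51), Cyp2c66 (0.59), Cyp2d34 (1.32), Cyp3a11 (1.81) and Cyp3a16 (2.37). No member passed in the reference channel in the 3 other comparisons. This fit of the reference channel was added after the values were seen. The Cyp2b10 ratio changed by 0.07 with compound 6 and -0.07 with compound 2 and did not pass. Its sample channel alone lay between 8.80 and 9.18 with compound 6, against 7.44 to 7.82 with vehicle. With compound 2 it lay between 8.67 and 8.78, against 7.52 to 7.93.

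Cyp3a11, the main Cyp3a drug-oxidising enzyme of adult mouse liver, read 9.85, 10.01, 10.59 and 9.91 with compound 6 and 9.49, 9.34, 9.72 and 9.26 after withdrawal, against 8.56, 8.24, 9.74 and 8.78 with vehicle. Compound 6 lay above every vehicle array, whereas withdrawal overlapped with vehicle F. The change was 1.26 ± 0.22 with compound 6 (adjusted p = 0.000535) and 0.62 ± 0.22 after withdrawal (adjusted p = 0.0552, and 0.00171 with the block). It read 10.46, 10.23 and 10.33 with compound 2 and 9.95, 10.05 and 10.02 with compound 9, against 9.43, 9.29 and 9.44 with vehicle. The 3 groups did not overlap; the change was 0.95 ± 0.26 with compound 2 (adjusted p = 0.0363, lost without any 1 of the 6 arrays, at 0.89 to 1.01) and 0.62 with compound 9 (adjusted p = 1.00).

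In the reference channel, as log2 signal relative to each array's 75th percentile, Cyp3a11 read -1.65, -1.95 and -1.48 on compound 2 arrays, against -2.61, -3.37 and -3.0 on vehicle arrays A to C. It read -2.41, -2.70, -1.33 and -2.24 on compound 6 arrays, against -5.03, -3.64, -3.28 and -3.97 on vehicle arrays D to G. The treated arrays were above all vehicle arrays of their set, although the RNA in that channel was the same. A further Cyp3a11 probe, which also matches Cyp3a41a, Cyp3a41b and Cyp3a44, gave 0.62 with compound 6 and 0.22 with compound 2.

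Cyp3a16, a form best known from fetal liver, read 8.01, 7.85, 8.41 and 7.97 with compound 6 and 7.54, 7.38, 7.84 and 7.70 after withdrawal, against 6.71, 6.81, 7.71 and 6.75 with vehicle. Compound 6 lay above vehicle throughout, and withdrawal overlapped with vehicle F. The ratio rose by 1.06 ± 0.18 with compound 6 (adjusted p = 0.000339) and 0.62 ± 0.18 after withdrawal (adjusted p = 0.0188), but Agilent's own log ratio turned these to -0.38 and -0.22, and the call after withdrawal was lost without vehicle D, E or G or withdrawal F or G (0.52 to 0.59). Its A to C arrays read 8.14, 8.17 and 7.95 with compound 2 and 7.88, 7.86 and 7.53 with compound 9, against 7.54, 7.40 and 7.49 with vehicle. Compound 2 lay above vehicle, by 0.61 ± 0.21 (adjusted p = 0.0983, and 0.00252 with the block), and compound 9 overlapped with it.

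Cyp3a25 read 8.16, 8.0, 9.26 and 8.17 with compound 6 and 7.63, 7.58, 8.91 and 7.76 after withdrawal, against 6.88, 6.21, 8.28 and 7.58 with vehicle. Array F was the highest in all 3 groups, which overlapped. The rise with compound 6 was 1.16 ± 0.38 (adjusted p = 0.0323), and the call was lost without compound 6 F (0.87), vehicle D (1.04) or vehicle E (0.82). With compound 2 it read 8.73, 8.41 and 8.33 and with compound 9 8.51, 7.88 and 7.77, against 7.85, 7.10 and 7.60 with vehicle. Compound 2 was above vehicle on all arrays, by 0.97 ± 0.44 (adjusted p = 0.241, and 0.00157 with the block), and compound 9 overlapped with vehicle.

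Cyp3a59 read 7.73, 7.53, 8.62 and 7.78 with compound 6 and 7.05, 7.20, 7.78 and 7.21 after withdrawal, against 6.17, 6.36, 7.48 and 6.68 with vehicle. Compound 6 did not overlap with vehicle and rose by 1.24 ± 0.25 (adjusted p = 0.00142), whereas withdrawal did overlap (0.63 ± 0.25, adjusted p = 0.0759, and 0.000359 with the block). It read 8.48, 8.39 and 8.10 with compound 2 and 7.84, 8.02 and 7.70 with compound 9, against 7.39, 7.05 and 7.36 with vehicle. All arrays of both compounds were above vehicle; the change with compound 2 was 1.06 ± 0.29 (adjusted p = 0.037, lost without any 1 of the 6 arrays, at 0.95 to 1.17) and turned to -0.15 in Agilent's log ratio. A further Cyp3a59 probe read 0.61, 0.76, 0.83 and 0.82 after withdrawal and 1.47, 1.23, 2.41 and 1.32 with compound 6. Vehicle arrays D to G read 0.57, 0.70, 1.13 and 0.80 for that probe. Its reference stood well above background on none of the 21 arrays. Cyp3a57 rose by 0.78 ± 0.22 with compound 6 (adjusted p = 0.0136, lost without compound 6 F, at 0.65, or vehicle D, at 0.62).

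Over the 8 Cyp3a genes the median change with compound 6 was 1.11 in the ratio, 1.66 in the sample channel alone (6 passed) and 0.12 in Agilent's log ratio (1 passed), and the reference channel alone moved by a median of 1.03. With compound 2 these medians were 0.86, 1.73 (4 passed), 0.11 (0 passed) and 1.31. These medians include Cyp3a41b and Cyp3a44, whose reference stood well above background on no array, and Cyp3a25, where it did on 6 of 21. Beside the rises of Cyp3a11, Cyp3a16, Cyp3a57 and Cyp3a59 with compound 6 the reference changed by 1.81, 2.37, 1.31 and 1.77, and its part in the result was not tested.

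**Figure D3:**
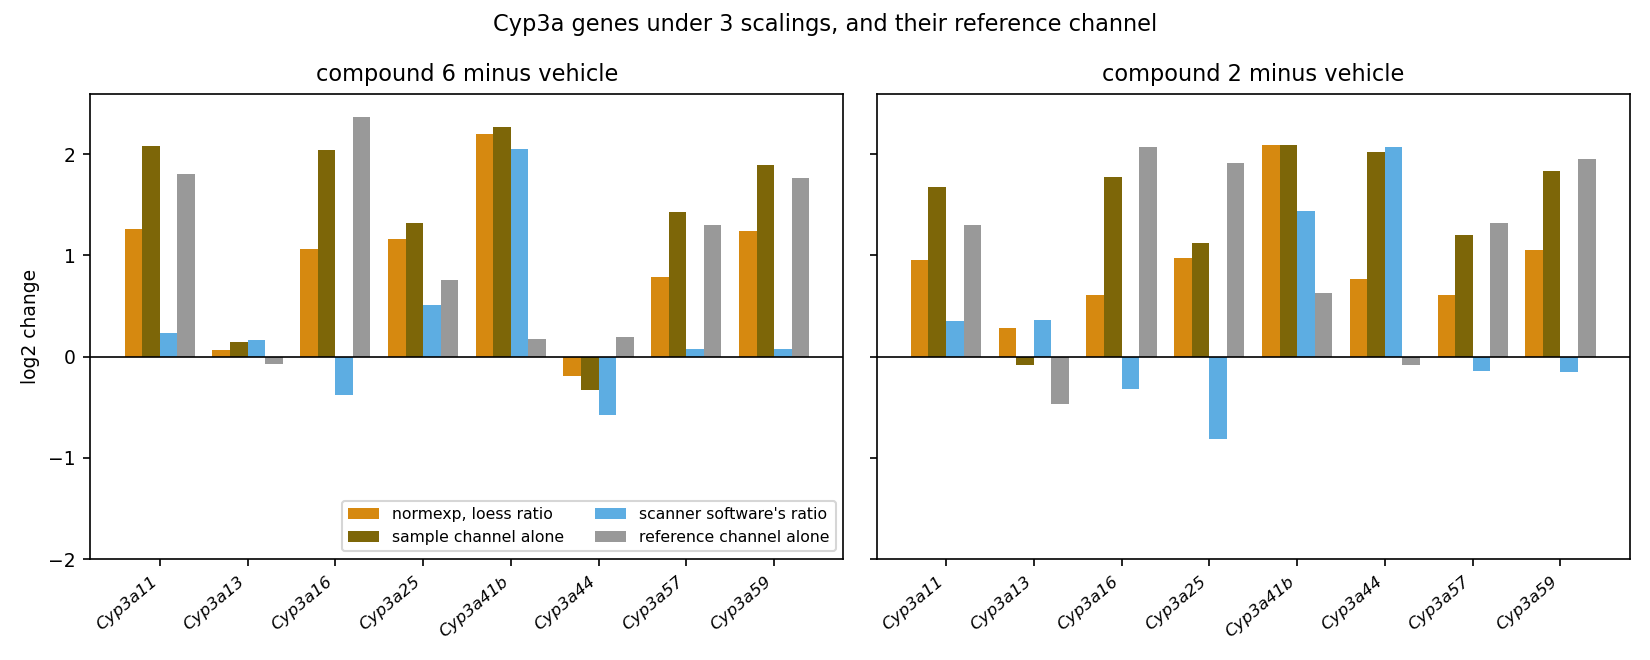
Log2 change of the 8 Cyp3a genes (horizontal axis) with compound 6 and with compound 2 against vehicle, as bars for the normexp and loess ratio, the sample channel alone, the scanner software's ratio and the reference channel alone. Cyp3a41b stands high in the first 3 with compound 6, whereas Cyp3a16 turns from 1.06 in the ratio to -0.38 in the scanner software's ratio, beside a reference bar of 2.37.

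Cyp3a13, an intestinal Cyp3a form, passed in no comparison. It read 7.24, 7.13, 7.60 and 7.19 after withdrawal and 6.63, 6.39, 7.44 and 6.58 with compound 6, against 6.33, 6.33, 7.42 and 6.68 with vehicle. Withdrawal was higher at each letter (0.60 ± 0.22, adjusted p = 0.0662, and 0.000371 with the block; 0.62 for a further probe), and both groups overlapped with vehicle. It read 8.19, 8.33 and 7.92 with compound 2 and 7.90, 8.14 and 7.67 with compound 9, against 7.75, 7.93 and 7.91 with vehicle, with overlap.

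The Cyp2d genes encode drug and steroid hydroxylases. Of 10, 4 rose with compound 6 (Cyp2d9, Cyp2d10, Cyp2d13 and Cyp2d40), 3 with compound 2 (Cyp2d13, Cyp2d37-ps and Cyp2d40), 1 after withdrawal (Cyp2d13) and none with compound 9. The shares of all genes that rose were 11.4% with compound 6, 3.31% with compound 2 and 7.27% after withdrawal. Cyp2d34 did not pass on its brightest probe. A further Cyp2d34 probe read 4.97, 4.49, 5.64 and 5.50 with compound 6 and lay between 4.50 and 5.26 after withdrawal. Vehicle arrays D to G read 3.34, 3.76, 4.59 and 4.19. With compound 2 the probe lay between 6.59 and 6.74 and with compound 9 between 6.05 and 6.25, against 5.79 to 6.24 with vehicle. Its reference stood well above background on 9 of the 21 arrays. Cyp2d9, a testosterone hydroxylase of male mouse liver, read 5.16, 5.26, 5.96 and 5.69 with compound 6 and 4.80, 4.84, 5.57 and 4.86 after withdrawal, against 3.91, 4.03, 5.25 and 4.26 with vehicle. At each letter both treated arrays lay above vehicle, and both groups overlapped with vehicle F. The change with compound 6 was 1.16 ± 0.24 (adjusted p = 0.0021) and turned to -0.07 in Agilent's log ratio, beside a reference change of 1.62. In the sample channel alone Cyp2d9 was higher with compound 6 at each letter: 2.91, 2.89, 4.43 and 3.62, against 1.24, 1.48, 3.08 and 1.69 with vehicle. In the other set Cyp2d9 lay between 6.20 and 6.32 with compound 2 and between 5.48 and 5.86 with compound 9, against 5.81 to 6.22 with vehicle. Both overlapped with vehicle.

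Cyp2d40 was the Cyp2d gene that passed with compound 6 under all 6 scalings. It read 1.05, 1.15, 1.23 and 1.12 with compound 6 and 0.93, 0.67, 0.97 and 0.67 after withdrawal, against 0.56, 0.53, 0.81 and 0.51 with vehicle. Compound 6 lay above every vehicle array, by 0.54 ± 0.14 (adjusted p = 0.0101), and withdrawal overlapped with vehicle. With compound 2 it read 4.12, 3.94 and 3.76, against 3.33, 3.14 and 2.86 with vehicle, without overlap (0.83 ± 0.17, adjusted p = 0.00571). That call was lost with Agilent's log ratio (0.48, adjusted p = 0.375) and the series matrix (0.52, adjusted p = 0.327).

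Cyp2d13 rose by 0.45 ± 0.14 after withdrawal, 0.97 ± 0.16 with compound 2 and 0.79 ± 0.14 with compound 6, and the call after withdrawal was lost without vehicle D or E or withdrawal D or E (0.41 to 0.44). Its reference stood well above background on 6 of the 21 arrays, so a change in that channel was not measured on most of them. Cyp2d37-ps rose by 0.93 ± 0.16 with compound 2, which turned to -0.06 in Agilent's log ratio, and its reference stood well above background on 3 of the 21 arrays. Cyp2d10 rose by 0.83 ± 0.26 with compound 6 (lost without compound 6 F or vehicle D, E or G, at 0.59 to 0.76), which turned to -0.01 in Agilent's log ratio beside a reference change of 1.71. Cyp2b9, a steroid hydroxylase, rose by 0.59 ± 0.16 with compound 2 (lost without any 1 of the 6 arrays, at 0.50 to 0.67) and 0.77 ± 0.14 with compound 6, which turned to -0.05 and -0.12 in Agilent's log ratio beside reference changes of 1.02 and 1.54. In the sample channel alone Cyp2b9 lay between 2.86 and 3.54 with compound 6, against 1.51 to 1.94 with vehicle. With compound 2 it lay between 3.06 and 3.22, against 1.88 to 2.46. Cyp2d10 read 3.15, 3.37, 5.91 and 4.25 in that channel with compound 6, against 1.82, 1.93, 3.91 and 2.07 with vehicle. The part of the reference signal in these results was not tested.

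**Figure D4:**
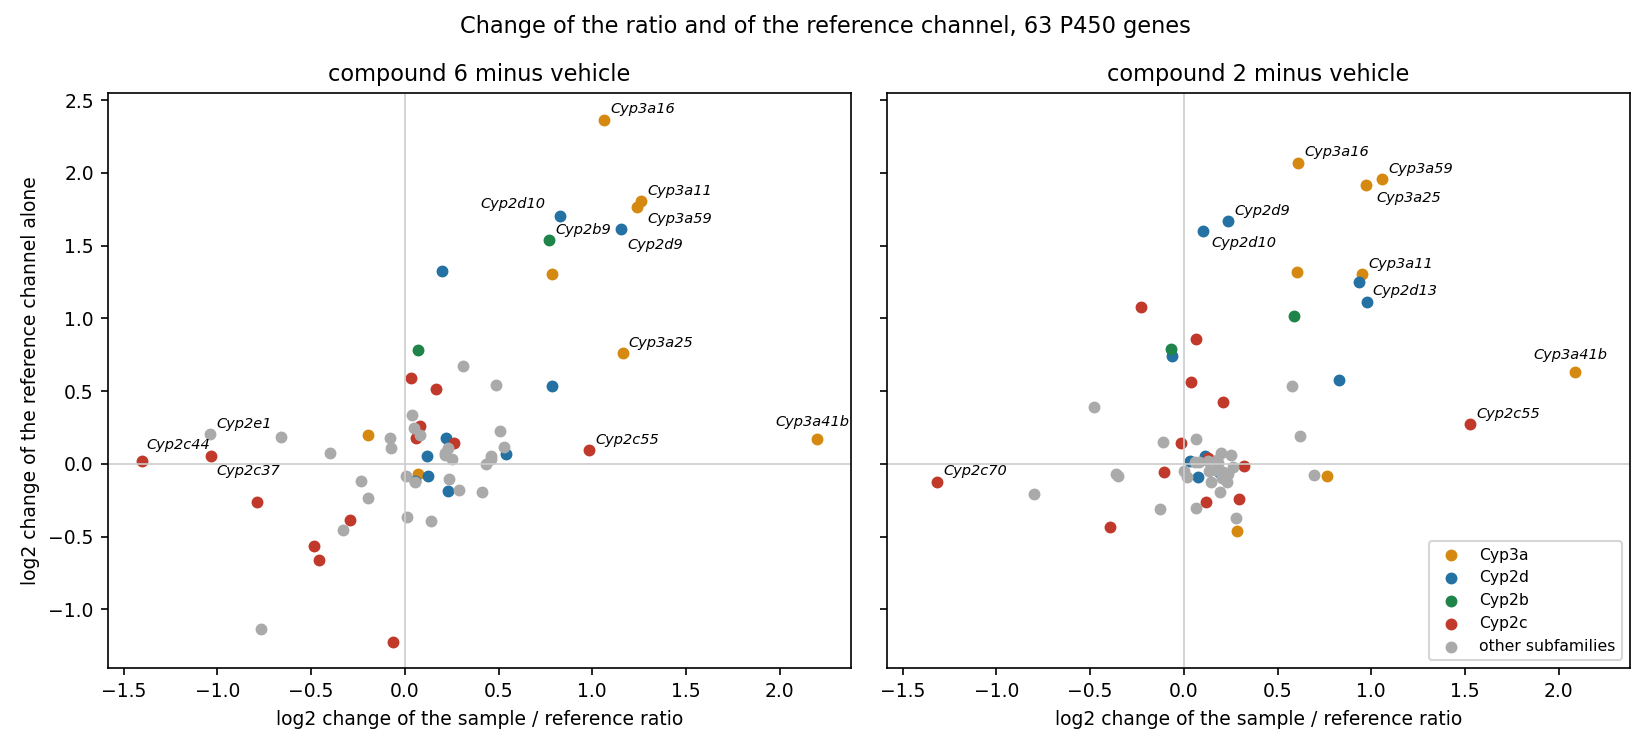
Log2 change of the sample over reference ratio (horizontal axis) against that of the reference channel alone (vertical axis) for each of the 63 genes, with compound 6 and with compound 2 against vehicle, coloured by subfamily. Cyp2c55 and Cyp2c44 lie far from 0 on the horizontal axis with reference changes of 0.09 and 0.02 with compound 6, as does Cyp3a41b, whose reference was well above background on no array, whereas Cyp3a16 and Cyp3a11 have 2.37 and 1.81.

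Counting the called members whose sign was the same in all 6 scalings (the ratio, offset 10, median centring, Agilent's log ratio, the series matrix and the sample channel alone) gave 22 of 27 with compound 6, 7 of 10 with compound 2 and 10 of 13 after withdrawal. Passing in all 6 were Cyp2c44, Cyp2c55, Cyp2c70, Cyp2d40, Cyp2e1, Cyp3a41b and Cyp4f41-ps with compound 6, Cyp2c55, Cyp2c70 and Cyp2r1 with compound 2, and Cyp2c55, Cyp2e1 and Cyp4a10 after withdrawal.

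Among the single-gene subfamilies of family 2, Cyp2r1, a 25-hydroxylase of vitamin D, read 1.83, 1.68 and 1.50 with compound 2, against 0.95, 1.12 and 1.07 with vehicle. The groups did not overlap, and the rise was 0.62 ± 0.15 (adjusted p = 0.0204). Leaving out compound 2 A or B, or vehicle A or C, ended the call (0.54 to 0.64). Cyp2u1, a fatty acid hydroxylase, rose by 0.41 ± 0.09 with compound 6 (adjusted p = 0.00199), but its other probes gave -0.69 and -0.27, and the mean of its probes turned to -0.18. Of the 6 Cyp2j genes, epoxygenases and hydroxylases of fatty acids, Cyp2j6 (0.32 ± 0.10) and Cyp2j9 (0.68 ± 0.18) rose after withdrawal, where 7.27% of all genes rose. Without vehicle D or E both calls were lost (0.28 and 0.59 to 0.60), as was that of Cyp2j6 without vehicle G or withdrawal E, F or G (0.28 to 0.33), and Cyp2j9 turned to -0.13 in the series matrix values. The Cyp2j9 reference stood well above background on 8 of the 21 arrays.

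Cyp2s1, an epithelial P450 that aryl hydrocarbon receptor ligands induce, passed in no comparison. It read 4.46, 4.42, 4.43 and 4.31 after withdrawal and 4.15, 4.21, 4.35 and 3.87 with compound 6, against 4.38, 4.22, 4.71 and 4.21 with vehicle. It read 3.81, 3.26 and 3.53 with compound 2 and 4.23, 3.45 and 3.97 with compound 9, against 4.13, 3.38 and 4.18 with vehicle. All groups overlapped with vehicle. It was lower at each letter with compound 2 (-0.36 ± 0.21, adjusted p = 0.396, and 0.0209 with the block) and compound 6 (-0.24 ± 0.18, adjusted p = 0.381, and 0.0412 with the block).

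Family 1 holds the classic aryl hydrocarbon receptor targets. Cyp1a1 was above background on 10 arrays in all and read 0.63, 0.74, 0.99 and -0.06 after withdrawal and 0.63, 0.86, 2.88 and -0.19 with compound 6, against 0.50, 0.57, 1.17 and 0.01 with vehicle. Compound 6 F stood above the rest, and both groups overlapped with vehicle (0.02 ± 0.42 and 0.48 ± 0.42). In the other set Cyp1a1 was not well above background on any compound 9 or vehicle array and on 1 of 3 compound 2 arrays.

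Cyp1b1, which oxidises oestradiol and polycyclic hydrocarbons, read -2.60, -3.43, -3.19 and -3.58 with compound 6 and -3.68, -3.50, -3.71 and -3.49 after withdrawal, against -3.66, -3.67, -3.58 and -3.74 with vehicle. Array D held most of the difference, and compound 6 just touched the vehicle range. The rise was 0.46 ± 0.14 with compound 6 (adjusted p = 0.0244), and without compound 6 D it was 0.26 (adjusted p = 0.0594). Leaving out compound 6 F, vehicle E or vehicle G also ended the call (0.44 to 0.46). Its A to C arrays lay between -3.28 and -3.18 with compound 2 and between -3.41 and -3.13 with compound 9, against -3.44 to -3.25 with vehicle. Both overlapped with vehicle.

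Family 4 enzymes hydroxylate the ends of fatty acids and leukotrienes. After withdrawal 2 of 5 Cyp4a genes fell (median -0.55), where 13.4% of all genes fell, and none passed with a compound. Cyp4a10 read 2.14, 2.38, 2.05 and 2.30 after withdrawal and 2.67, 2.62, 2.31 and 2.93 with compound 6, against 2.88, 2.86, 3.13 and 3.25 with vehicle. Withdrawal lay below every vehicle array, by -0.81 ± 0.18 (adjusted p = 0.00414), and its other probes gave -0.77 and -0.40. Compound 6 overlapped with vehicle and was lower at each letter (-0.40 ± 0.18, adjusted p = 0.111, and 0.0113 with the block). Cyp4a32 fell by 0.68 after withdrawal (adjusted p = 0.01), and turned to 0.45 in the series matrix values. Its reference stood well above background on 2 of the 21 arrays. The Cyp4a10 probe that gave -0.40 also matches Cyp4a32. The probes that stand for Cyp4a10 and Cyp4a31 share 44 of 47 aligned bases, so these genes may not be fully told apart.

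With compound 6, 5 of the 8 Cyp4f genes rose and 1 fell, against 2 higher after withdrawal and none with compounds 2 and 9. Of all genes, 11.4% rose and 13.4% fell with compound 6, and 7.27% rose after withdrawal. Cyp4f41-ps, a pseudogene, read 1.38, 1.21, 0.97 and 0.86 with compound 6 and 0.97, 0.68, 0.84 and 0.78 after withdrawal, against 0.51, 0.72, 0.71 and 0.37 with vehicle. Compound 6 lay above all vehicle arrays, by 0.53 ± 0.12 (adjusted p = 0.00295), whereas withdrawal overlapped with them. The other rises with compound 6 were 0.51 ± 0.10 for Cyp4f16, 0.46 ± 0.11 for Cyp4f17, 0.43 ± 0.14 for Cyp4f18, a leukotriene B4 hydroxylase of mouse leukocytes, and 0.23 ± 0.07 for Cyp4f13. Leaving out compound 6 F or vehicle D, E or G ended the calls of Cyp4f18 (0.27 to 0.45) and Cyp4f13 (0.19 to 0.22). Leukocyte markers also rose with compound 6 (4 of 5, where 11.4% of all genes rose). Their list median lay between -1.96 and -1.78 with compound 6, against -2.69 to -2.24 with vehicle. The part of these markers in the Cyp4f18 result was not tested. Cyp4f40 fell by 0.66 with compound 6, without overlap: 3.31, 2.91, 2.47 and 3.03, against 3.39, 3.52, 3.49 and 3.95 with vehicle. The call was lost without compound 6 F (-0.51) or vehicle G (-0.54). The Cyp4f40 reference stood well above background on 1 of the 21 arrays. After withdrawal Cyp4f13 (0.24 ± 0.07) and Cyp4f17 (0.38 ± 0.11) rose, and both calls were lost without vehicle D, E or G or withdrawal F or G (0.20 to 0.23 and 0.28 to 0.38), that of Cyp4f13 also without withdrawal E (0.23).

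The members that did not pass ranged from -0.55 to 0.82 after withdrawal, from -0.80 to 0.97 with compound 2, from -0.77 to 0.48 with compound 6 and from -0.35 to 1.24 with compound 9. Cyp2a12, Cyp4a12a and Cyp4a12b were not well above background on any D to G array of withdrawal, compound 6 or vehicle, so those values measure no change.

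The 3 compounds were compared in 3 pairs, all at 2 µM for 24 h. Compounds 9 and 2 shared letters, whereas compound 6 was set against each through its own vehicle arrays. Between compounds 9 and 2, 5 members passed (7.94%, against 4.8% of all genes; 17 with the letter as a block, 15.9% of all). Cyp2c70 was higher with compound 9, by 1.05 (95% interval 0.69 to 1.41, adjusted p = 0.00152). Cyp2d13 (-1.26), Cyp2d37-ps (-1.12), Cyp2d40 (-1.06) and Cyp3a44 (-0.82) were lower, where 1.49% of all genes were higher and 3.31% lower (2 higher and 0 lower with Agilent's log ratio). Of the 5, Cyp2c70 passed in all 6 scalings. The call of Cyp3a44, dim on some arrays as given above, was lost without compound 9 A, B or C or compound 2 A or B (-0.93 to -0.66).

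Between compounds 6 and 9, 5 members passed (7.94%, against 6.5% of all genes; 22 with the block, 21.8% of all, and 19 without letter F, 16.2% of all). Cyp2c44 was lower with compound 6 by 1.27 on the log2 scale (interval -1.90 to -0.64, adjusted p = 0.0189). Cyp2d9 (1.50), Cyp2d13 (1.08), Cyp2d40 (0.77) and Cyp4f16 (0.61) were higher, where 3.83% of all genes were higher and 2.67% lower (6 higher and 0 lower with the sample channel alone, 2 higher and 1 lower with median centring). Leaving out single arrays ended the calls of Cyp2d40 (10 arrays, 0.52 to 0.80), Cyp2d9 (compound 9 C or vehicle A, C or E, 1.39 to 1.47) and Cyp4f16 (compound 9 A or vehicle B or E, 0.56 to 0.59). All 5 had the same sign in all 6 scalings, and none passed in all.

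Between compounds 6 and 2 no member passed (0%, against 0.566% of all genes, 0.346% higher and 0.22% lower; 10 members, 15.9%, had an unadjusted p under 0.05, against 13.9% of all; 11 with the block, 9.22% of all, and 7 without letter F, 7.18% of all). The difference was -1.01 for Cyp2c44 (interval -1.63 to -0.38, adjusted p = 0.119, and 0.00733 with the block). For Cyp2c55 the interval was -1.20 to 0.11 between compounds 6 and 2, -0.87 to 0.12 between compounds 9 and 2, and -0.82 to 0.49 between compounds 6 and 9, so differences of those sizes were not excluded. Adjusted over the 3 pairs of this gene alone, the p-values of Cyp2c70 were 2.38e-05 for compounds 9 and 2 and 0.0337 for each pair with compound 6. After adjustment over all genes Cyp2c70 passed between compounds 9 and 2 and in neither pair with compound 6.

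**Figure D5:**
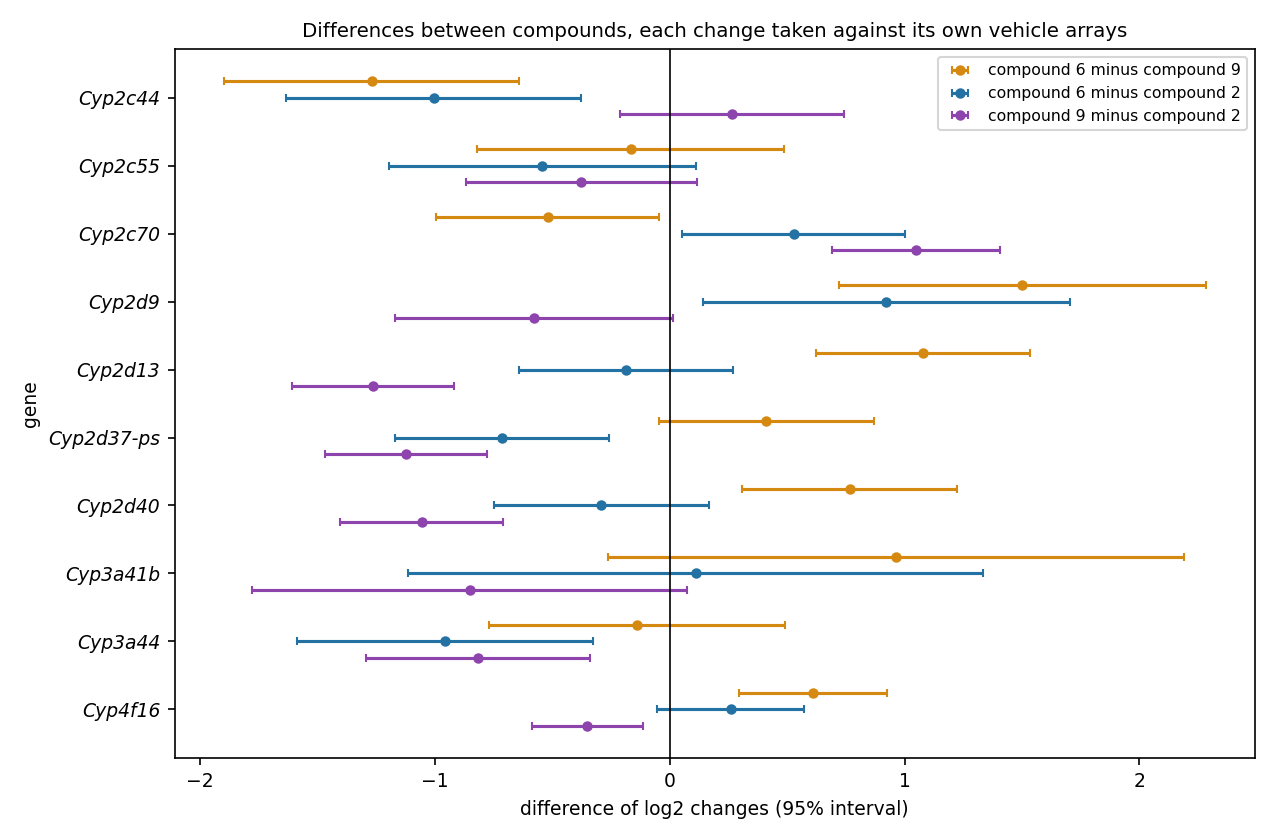
Difference in log2 change between compounds (horizontal axis) for compound 9 minus 2, compound 6 minus 2 and compound 6 minus 9, with 95% intervals, for members of the Cyp2c, Cyp2d, Cyp3a and Cyp4f subfamilies (vertical axis). The interval of Cyp2c70 for compound 9 minus 2 runs from 0.69 to 1.41, and those of Cyp2c55 cross 0 in all 3 pairs.

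Genes that act with the P450 enzymes were described from lists. Over all genes tested, 7.27% rose after withdrawal, 3.31% with compound 2 and 11.4% with compound 6. Those that fell were 13.4%, 2.01% and 13.4%. The list counts stand beside these shares. Of 14 measured UDP-glucuronosyltransferases and sulfotransferases, which conjugate oxidised products, 7 rose after withdrawal (median 0.33), 5 with compound 2 (0.47) and 9 with compound 6 (0.60), none fell, and none passed with compound 9 (0.00). Ugt2b35 rose by 0.84 ± 0.18 after withdrawal, 0.99 ± 0.21 with compound 2 and 1.65 ± 0.18 with compound 6, and the value with compound 2 turned to -1.14 in the series matrix. Ugt2b1 rose by 0.88 ± 0.10 and Ugt1a6b by 0.62 ± 0.10 with compound 6. Ugt2b36 rose by 0.48, 0.55 and 0.57 after withdrawal and with compounds 2 and 6, beside reference changes of 1.03, 0.89 and 0.86. Ugt2b34 (0.72 ± 0.12) and Ugt1a10 (0.74 ± 0.15) also rose with compound 6.

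Of the 20 measured electron donors and genes of haem supply, 3 rose and 4 fell after withdrawal, 1 rose and 2 fell with compound 2, and 4 rose and 5 fell with compound 6. Por, the reductase that feeds electrons to all members, rose by 0.33 ± 0.10 after withdrawal and 0.68 ± 0.10 with compound 6, and changed by 0.34 ± 0.12 with compound 2 (adjusted p = 0.106, and 0.00357 with the block). Pgrmc2, a haem carrier, rose by 0.43, 0.81 and 0.88 after withdrawal and with compounds 2 and 6. Cyb5r1, a cytochrome b5 reductase, fell by 0.95, 0.53 and 0.73 in the same comparisons. Urod, an enzyme of haem synthesis, fell by 0.53 after withdrawal and 0.62 with compound 6, and Blvrb, a biliverdin reductase, rose by 0.60 with compound 6.

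Of 22 measured receptors and factors that control P450 genes, 3 rose after withdrawal, 1 rose and 1 fell with compound 2, and 3 rose with compound 6. Over all genes 7.27%, 3.31% and 11.4% rose in these comparisons, and 13.4%, 2.01% and 13.4% fell. Nr1i2 changed by 0.16, 0.14 and 0.26, Nr1i3 by 0.11, 0.28 and 0.08, and Hnf4a by 0.05, 0.10 and 0.10 after withdrawal and with compounds 2 and 6, and none of these passed. Nr1h4, the bile acid receptor, rose by 0.37 ± 0.10 after withdrawal and 0.44 ± 0.10 with compound 6, and Cebpa, a transcription factor of differentiation, by 0.55 ± 0.13 with compound 2 and 0.48 ± 0.11 with compound 6. Ppargc1a rose by 0.53 ± 0.15 with compound 6, Cebpb by 0.39 ± 0.10 and Esrra by 0.16 ± 0.06 after withdrawal, and Nr1h3 fell by 0.31 with compound 2.

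In the aryl hydrocarbon receptor list (9 measured), 4 rose after withdrawal, 3 with compound 2 and 4 with compound 6. Ahr rose by 0.28 ± 0.07, 0.30 ± 0.08 and 0.26 ± 0.07 in these comparisons, while Arnt, its partner, did not pass (0.03, 0.01 and -0.17). Nqo1, a quinone reductase, rose by 0.53 ± 0.15, 0.69 ± 0.17 and 1.03 ± 0.15. Nfe2l2, the factor that acts on antioxidant elements, rose with compounds 2 (0.73 ± 0.13) and 6 (0.52 ± 0.11), Ugt1a6a after withdrawal (0.51 ± 0.16) and with compound 6 (0.83 ± 0.16), and Tiparp after withdrawal (0.44 ± 0.11).

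Among the other lists, Ephx1, the microsomal epoxide hydrolase, rose with compounds 2 (0.55 ± 0.12) and 6 (0.86 ± 0.10), and Fmo5 (0.57 ± 0.11) and Fmo2 (0.20 ± 0.07) rose after withdrawal, of 8 measured epoxide hydrolases and flavin monooxygenases. Of 19 PPAR target genes, 2 rose after withdrawal (among them Acaa1b, 0.42 ± 0.11), none passed with compound 2, and with compound 6 2 rose (Cpt2, 0.31 ± 0.07, and Acaa1b, 0.37 ± 0.11) and 2 fell (Acadl, by 0.47, and Hadhb, by 0.41). Of 11 measured genes in P450 families 5 and above, 3 fell after withdrawal (Cyp20a1, Tbxas1 and Cyp39a1, by 0.55, 0.41 and 0.47), none passed with compound 2, and with compound 6 2 fell (Cyp20a1 and Cyp39a1, by 0.55 and 0.40) and Cyp51 rose (0.39 ± 0.11). None of these lists had a passing gene with compound 9.

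Cell-type markers moved beside the members. Beside the marker counts, 7.27% of all genes rose after withdrawal, 3.31% with compound 2 and 11.4% with compound 6. Those that fell were 13.4%, 2.01% and 13.4%. Of 12 enterocyte markers 4 rose after withdrawal, 1 with compound 2 and 3 with compound 6, with list medians of 5.70 to 6.00 after withdrawal and 5.91 to 6.18 with compound 6, against 5.69 to 5.79 with vehicle. Of 7 goblet markers 1 rose after withdrawal, 1 with compound 2 and 5 with compound 6. Of 6 measured hepatocyte markers 1 fell after withdrawal, 1 rose and 1 fell with compound 6 and none passed with compound 2. Of 5 fibroblast markers none passed after withdrawal, 1 rose with compound 2 (Col1a1, 0.44 ± 0.08) and 3 rose with compound 6 (Vim, 0.55 ± 0.11, Col1a1, 0.25 ± 0.07, and Col1a2, 0.23 ± 0.08). Of 8 enteroendocrine markers 1 rose after withdrawal (Tac1, 0.20 ± 0.06), none passed with compound 2 and 3 rose with compound 6 (Pyy, 0.80 ± 0.16, Neurod1, 0.65 ± 0.11, and Tac1, 0.51 ± 0.06). Of 8 proliferation markers 6 fell after withdrawal, 2 rose with compound 2 (Mcm6 and Pcna), and with compound 6 Mcm4 fell by 1.44 and Pcna rose by 0.57. Of 3 endothelial markers 1 rose after withdrawal, 1 with compound 2, and 1 rose and 1 fell with compound 6. None of 5 leukocyte markers passed after withdrawal or with compound 2, and no Paneth or tuft cell marker passed in any comparison with vehicle. No marker of any list passed with compound 9. Their part in the P450 results was not tested.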

How the data were processed

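RNA of 21 samples was measured on dual-channel Agilent arrays (Cy3 sample, Cy5 Universal Mouse Reference RNA, no dye swap). The deposited scanner files hold mean and background intensity per spot, made with Feature Extraction 10.7.3.1 per the file headers. They also hold a log10 ratio of red over green, background-subtracted and dye-normalized by Agilent's software per the file headers. Values of the deposited series matrix are on a log2 scale, sample against reference, found by comparison with the scanner values; how they were made is not stated.

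With limma 3.58.1 in R 4.3.3 with data.table version 1.17.8, intensities were corrected with normexp (offset 50) and normalised by loess. Spots marked as non-uniform were set missing (157 over all arrays), controls left out, none was saturated. The filter on dim probes (3 arrays, sample channel) left 29631, and the probe with the brightest mean Cy3 signal stands for each gene. One limma model with 5 group terms and the letter set was fitted to all arrays; tests were two-sided and adjusted by Benjamini-Hochberg over 21372 genes. The fit was tested on simulated data with independent noise on each array, so that test does not cover the pairing by letter. Pairing by letter was examined through each array's deviation from its group: 21 same-letter pairs correlated at 0.208 to 0.749 (median 0.528), and 54 other-letter pairs at a median of -0.179. The pairing comes from the letters in the titles. Every array differed from every other (highest correlation 0.996).

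The members and lists were chosen with earlier results of these data known. Values on every array are given for members changed at least 2-fold (log2 change of 1) with an adjusted p under 0.05 against vehicle and for Cyp1a1, Cyp1b1, Cyp3a13, Cyp2s1 and Cyp2c65; passing members and up to 6 passing genes per list are named (some are not reported here), as are Ahr, Arnt, Nr1i2, Nr1i3, Hnf4a and Por. Cyp2d40, Cyp2r1, Cyp4a10, Cyp4f40 and Cyp4f41-ps got array values after theirs were seen. So did the further probes of Cyp2c38, Cyp2c54, Cyp2d34 and Cyp3a59. The sample channels of Cyp2b9, Cyp2b10, Cyp2c65, Cyp2d9 and Cyp2d10 were also added after their values were seen. Alternatives were other corrections and scalings, filters, probe means, blocks for letter and slide, and left-out arrays. Promoters are RefSeq's (GRCm38.p6); probe coordinates are the files' mm9. Gene neighbours and exons were not used here. Python 3.11.15, pandas 2.3.3 and matplotlib 3.10.9 read sequences and drew figures.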

Additional observations from a re-analysis of the deposited data

Results flagged for a closer look

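In groups of 4 arrays, a single array lay far from the 3 others (Dixon's criterion) for 20 of 189 member-group combinations (10.6%) and 7 of 111 for the named pathway genes (6.31%); chance alone flags about 1 in 20 groups. Letter F held 15 of the 20 and all 7 of the others.

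With compound 6, array F was high for Cyp3a25 (9.26, next 8.17), Cyp3a57 (6.82), Cyp2c50 (3.69) and Ugt1a10 (4.49) and low for Cyp4f15 (1.31), Acadl (1.24) and Hadhb (0.77). Array G was low for Cyp2d11 (3.38) and Cyp2d26 (5.77).

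After withdrawal, array F was high for Cyp3a25 (8.91), Cyp3a41b (5.49, next 4.67), Cyp2d9 (5.57, next 4.86) and Ugt1a10 (4.16). Array D was high for Cyp2j9 (6.29) and low for Cyp4f13 (2.93), and array E was low for Cyp4f18 (-0.84).

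Among vehicle arrays, F was high for Cyp2c29 (6.76), Cyp2c37 (5.42, next 4.27), Cyp2c39 (4.69), Cyp2d10 (5.27), Cyp2j6 (6.59), Cyp3a16 (7.71, next 6.81), Cyp4f16 (3.87) and Nfe2l2 (2.71). It was low for Cyp2e1 (0.25, next 1.43), Cyb5r1 (-2.78) and Urod (0.35).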

How the results depend on the processing

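Of 1424 alternative values for 60 passing member results, 1128 kept their sign and side of the threshold, 269 kept the sign only and 27 reversed; 6 results held under every alternative. With the letter as a replicate block, or the slide as a random block, all 60 held. Within slides, where a value without a test could be had, all signs held. Counts of passing members that moved over 1.5 times were as follows. With compound 2 (10) they were 4 with Agilent's log ratio and with the series matrix, 21 with no set term, 20 with the replicate block and 6 to 8 leaving out 1 array. With compound 6 (27) they were 17 with the series matrix, and 20 to 29 leaving out 1 array. After withdrawal (13) they were 26 with the Cy3 channel alone, 5 with median centring, 4 with no set term, 8 with only the arrays compared, 35 with the replicate block, 21 with the slide as a fixed block, 30 without letter F and 4 to 31 leaving out 1 array (7 without withdrawal G, 4 without vehicle D or E, 31 without vehicle F). With compound 9 (0) the count was 1 with the replicate block. Between compounds 9 and 2 (5) they were 2 with Agilent's log ratio, 3 with Cy3 alone, 0 with no set term, 17 with the replicate block, 1 with the series matrix and 4 to 5 leaving out 1 array. Between compounds 6 and 2 (0) they were 28 with no set term, 11 with the replicate block, 2 with the series matrix, 7 without letter F and 0 to 4 leaving out 1 array (4 without vehicle F, 1 without compound 6 G). Between compounds 6 and 9 (5) they were 3 with median centring, 30 with no set term, 22 with the replicate block, 9 with the slide as a fixed block, 19 without letter F and 2 to 17 leaving out 1 array (17 without vehicle F, 2 without vehicle E, 3 without vehicle A, vehicle B or compound 9 C).

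With Agilent's log ratio and the series matrix these reversed: Cyp2b9 with compound 2 (-0.0475 and -0.0171) and compound 6 (-0.12 and -0.0900), Cyp2d37-ps with compound 2 (-0.0575 and -0.0505), Cyp2d9 with compound 6 (-0.0740 and -0.25), Cyp3a16 with compound 6 (-0.38 and -0.31) and after withdrawal (-0.22 and -0.22), and Cyp3a59 with compound 2 (-0.15 and -0.12). Cyp2d10 with compound 6 reversed with Agilent's log ratio (-0.0150), and with the series matrix Cyp2c37 with compound 6 (1.34), Cyp2j9 (-0.13) and Cyp4a32 (0.45) after withdrawal and Ugt2b35 with compound 2 (-1.14). With the mean of probes Cyp2u1 with compound 6 reversed (-0.18). With no set term, which mixes letter sets, Cyp2c50 (0.78), Cyp2c70 (0.15) and Cyp2d40 (-0.54) with compound 6, Cyp2d13 (-0.15) and Cyp4a32 (0.0426) after withdrawal, Nqo1 with compound 2 (-0.35), and between compounds 6 and 9 Cyp2d13 (-0.32), Cyp2d40 (-1.74) and Cyp2d9 (-0.18) reversed. The cause of these reversals was not tested. Median centring moved the median of all genes by -0.12 with compound 2 and -0.11 with compound 6; 14.4% and 19.9% of passing genes were then higher, against 62.2% and 45.8% before. For pathway genes, 1054 of 1239 alternative values held, 183 kept the sign only and 2 reversed. Signal over background limits Cyp1a1, Cyp2e1, Cyp2a12, Cyp2f2, Cyp2j11, Cyp2j7-ps, Cyp3a44, Cyp4a12a and Cyp4a12b, and Cyp4a32 on letters A to C.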
